A study of Ovis aries with 49 samples.

Results

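The genes described here encode structural proteins of the extracellular matrix: collagen chains other than the type I chains COL1A1 and COL1A2, laminin chains, fibrillins, fibulins, microfibril-associated proteins, thrombospondins, SMOC proteins, matrilins, and single genes such as fibronectin (FN1), decorin (DCN) and periostin (POSTN). They were chosen by a rule on gene symbols. The rule found 58 genes, each with 1 probe set, among the 10273 probe sets measured. FMOD and TNC were also named by the rule but matched no probe set and are not analysed here, and a probe set that carries LAMA5 together with a second symbol was left out.

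The extracellular matrix is the protein scaffold that surrounds adipocytes, vessels and stromal cells. Fibrillar collagens give it tensile strength, type IV collagen and laminins build the basement membrane that wraps each adipocyte, and fibrillin microfibrils carry elastic fibres and bind growth factors in latent form. Small proteoglycans such as decorin bind collagen fibrils and govern their assembly, whereas matricellular proteins such as thrombospondins, SMOC1 and periostin modulate how cells respond to the scaffold. Fibroblasts and adipocyte progenitors are known as the main source of the fibrillar part in adipose tissue, which is laid down and remodelled as the depots expand in early life.

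Total RNA from whole dissected adipose tissue of twin lambs (Bluefaced Leicester cross Swaledale mothers) was hybridised to 49 human U133 Plus 2.0 arrays, from epicardial, omental, perirenal, sternal and subcutaneous fat at 7 and 28 days of age. There were 5 arrays in each of 9 groups and 4 in subcutaneous fat at 7 days. One twin of each mother was sampled at each age. The study fed mothers a control diet or the same diet with canola oil, and every title carries the letter C, which the labels do not explain, so the diet behind an array is not given. The age field of the labels was used, although the free-text description shared by all arrays names another age range. A smaller mass of tissue was extracted at 7 than at 28 days, so age and extracted mass cannot be told apart. Each array's label ends in a number, which is written here as a letter (A to G for the younger lambs, H to O for the older). The labels do not say what these numbers mark. The study describes the depots as taken from each lamb, so arrays of 1 age share animals and the depots are not independent samples, which the main fit does not model. The p-values reflect only how far these samples spread, which may be partly technical. Where a fixed block on the replicate number ended a depot call, its adjusted p is given beside the result as the blocked adjusted p.

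The values are log2 GCRMA values, a background-corrected and normalised measure of probe brightness. They ran from 2.49 to 14.04, and 82.7% of all values lay below 4. Human probes can bind sheep transcripts weakly, so a low value does not separate a poor match from low expression, levels are compared between samples and never between genes, and the floor can compress a difference that starts near it. Many values were exactly tied: in a median of 23 of 49 arrays a probe set carried 1 identical value, and in a median of 6 where its mean was at least 4. In 85.1% of probe sets this most common value was the median over all arrays. Ties narrow the spread within a group and can draw groups towards a common value, and their cause was not tested. Muscle transcripts entered some samples: creatine kinase M (CKM) exceeded 4 in all 5 epicardial arrays at 7 days and 4 of 5 at 28 days, in 3 of 4 subcutaneous arrays at 7 days and 2 of 5 at 28 days, in 1 of 5 sternal arrays at 7 days and 3 of 5 at 28 days, and in no omental or perirenal array. The adipocyte markers were mostly dim, since 6 of 10 measured never reached 4 (FABP4 at most 3.18), although DGAT2, the last enzyme of triacylglycerol synthesis, lay between 7.43 and 11.13. Fewer cells of a type and less RNA per cell cannot be told apart in whole tissue.

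Of the 58 matrix genes, 17 had a mean of at least 4 over all arrays and 31 a mean under 3. The brightest probe sets were those of COL3A1 (8.03 to 10.73 over the 49 arrays), COL5A2 (7.63 to 9.71) and FBN1 (7.16 to 9.20), followed by MFAP5, THBS3 and DCN. In contrast, 30 genes never exceeded 4. Among these were the basement membrane components COL4A1, COL4A2, NID1, NID2 and HSPG2 (perlecan), the elastic fibre core protein ELN, and LUM, SPARC and SPARCL1. For SPARC, which binds collagen and calcium, 31 of 49 arrays carried the same value of 2.49.

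Depot differences were tested at each age, and a gene was called where its adjusted p was at most 0.05. At 7 days 10 of 58 matrix genes differed between depots, against 8.16% of all probe sets. At 28 days 21 of 58 differed, against 20% of all probe sets. In all, 23 genes were called at either age, and 19 of these had a group mean of at least 4. The mean over the 17 brighter genes lay at 5.34 ± 0.17 (SD, n = 5) in sternal, 5.35 ± 0.15 in perirenal and 5.40 ± 0.19 in epicardial fat at 7 days, with 5.71 ± 0.12 in omental fat and 5.81 ± 0.14 (n = 4) in subcutaneous fat. At 28 days it ranged from 5.75 ± 0.10 in perirenal fat to 6.26 ± 0.06 in subcutaneous fat. These scores were not tested.

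**Figure D1:**
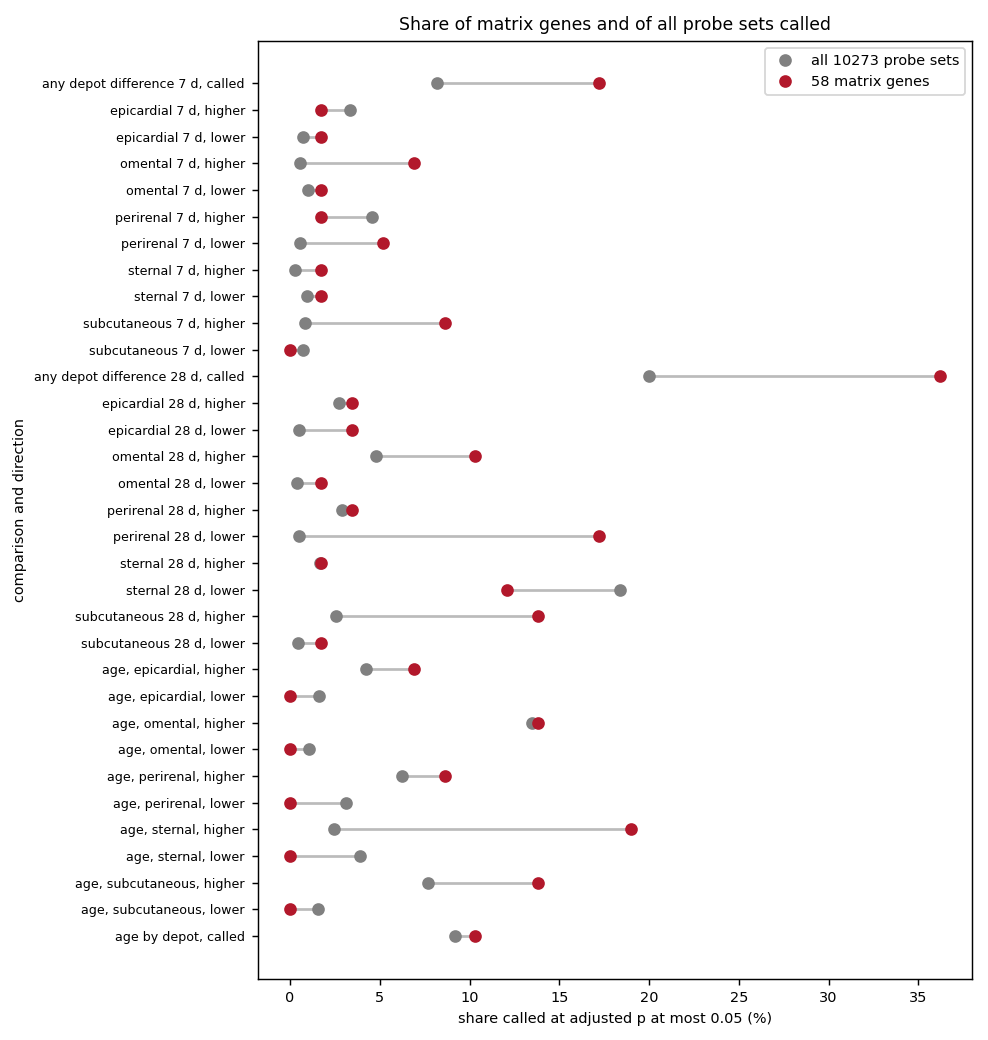
Share of the 58 matrix genes (red) and of all 10273 probe sets (grey) called at an adjusted p of at most 0.05 in each comparison and direction, in percent. The widest gaps between the points are in perirenal fat at 28 days (lower, 17.2% against 0.487%) and in the change with age in sternal fat (higher, 19% against 2.47%).

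Each depot was then set against the mean of the other 4 depots of the same age, and these comparisons share arrays. At 7 days subcutaneous fat had 5 matrix genes higher (0.827% of all probe sets) and none lower (0.701%). Omental fat had 4 higher (0.565%) and 1 lower (0.973%). In perirenal fat 1 gene was higher (4.58%) and 3 were lower (0.535%), with 0 higher and 3 lower after quantile normalisation. Epicardial fat had 1 higher (3.35%) and 1 lower (0.72%), a split that became 0 and 4 after quantile normalisation and 1 and 19 after centring each array on its brighter probe sets. Over all probe sets the epicardial split was 224 and 228 after quantile normalisation and 249 and 2908 after centring. In sternal fat 1 was higher (0.273%) and 1 lower (0.925%), with 1 and 0 after quantile normalisation. The median difference over all 58 genes lay between -0.07 in sternal and 0.07 in subcutaneous fat, close to the medians over all probe sets (-0.03 to 0.02). With the replicate number as a fixed block the counts at 7 days became 1 in epicardial, 0 in sternal and 2 in subcutaneous fat.

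At 28 days perirenal fat had the most genes on the low side, with 10 lower (0.487% of all probe sets) and 2 higher (2.87%). Subcutaneous fat had 8 higher (2.58%) and 1 lower (0.458%). Omental fat had 6 higher (4.76%) and 1 lower (0.36%), which became 4 and 2 after quantile normalisation and 3 and 2 after centring. Epicardial fat had 2 higher (2.74%) and 2 lower (0.506%), and 1 call in all with the replicate block. In sternal fat 7 were lower (18.4%) and 1 was higher (1.65%), so that the share of matrix genes called lower was below that of all probe sets. The 17 brighter genes had a median difference of -0.51 in perirenal fat and 0.37 in subcutaneous fat, beside 0.08 and 0.07 over all probe sets of that brightness. Over all 58 genes the medians were small at this age too, from -0.05 in sternal to 0.05 in omental fat. They were -0.03 in perirenal and 0.03 in subcutaneous fat.

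The sternal arrays at 28 days had a lower mean over all probe sets (3.27) than the 4 other depots (3.40 to 3.42). After quantile normalisation the matrix genes there split into 6 higher and 3 lower, beside 601 and 354 of all 10273 probe sets. After centring they split into 41 higher and 2 lower, beside 7518 and 352 of all probe sets. The direction in sternal fat thus differed between scalings, for all probe sets as for the matrix genes. Of the 8 calls, 4 were shared with the quantile-normalised values and 3 with the centred values.

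**Figure D2:**
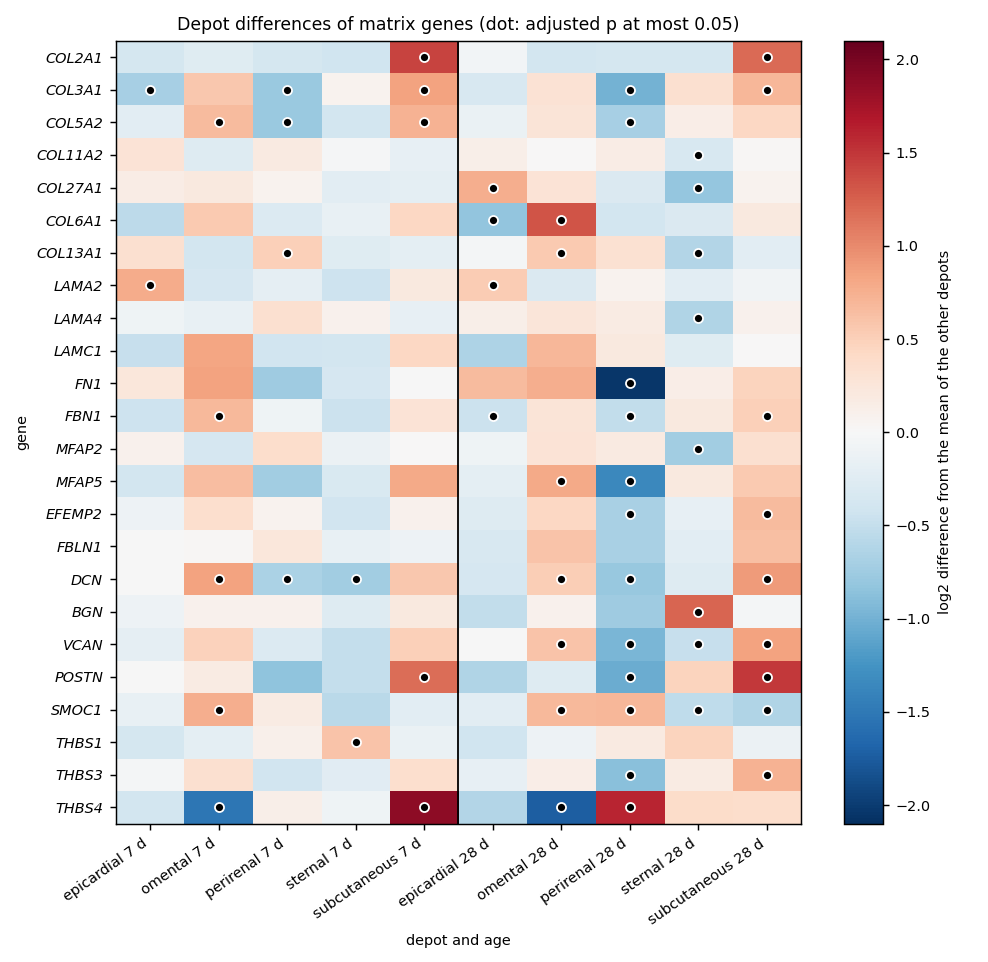
Difference in log2 value between each depot and the mean of the other 4 depots, at 7 days (left 5 columns) and 28 days (right 5 columns), for the 24 matrix genes called in any depot test. Red is higher and blue is lower, and a dot marks an adjusted p of at most 0.05. Perirenal fat at 28 days is blue for 10 called genes, with FN1 lowest at -2.04, and THBS4 has opposite colours in omental and perirenal fat.

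Among the fibrillar collagens, COL3A1, the type III chain of pliable tissues, was lower in perirenal fat at both ages and higher in subcutaneous fat at both ages. At 28 days its perirenal values were 8.54 (I), 9.09 (J), 9.32 (M), 9.35 (N) and 8.89 (K), and the other 20 arrays ran from 9.26 through a median of 10.11 to 10.73. All 5 perirenal arrays were below that median and 3 were below every other array. The difference was -1.0 ± 0.16 (standard error, adjusted p = 0.000757), beside -0.78 ± 0.17 at 7 days (adjusted p = 0.00773), when the perirenal values were 8.03, 8.16, 8.62, 8.93 and 8.30. Subcutaneous fat carried 10.55, 10.16, 10.52, 10.57 and 10.21 at 28 days, 0.70 ± 0.16 above the other depots (adjusted p = 0.0155, blocked adjusted p = 0.0886). That call was lost without replicate J or M (adjusted p up to 0.0569) and without those arrays of sternal and subcutaneous fat in which CKM exceeded 4. At 7 days subcutaneous fat was 0.84 ± 0.18 higher (adjusted p = 0.0207, blocked adjusted p = 0.0825), lost without replicate G or E (up to 0.0971) and without those arrays. Epicardial fat was lower at 7 days (-0.69 ± 0.17, adjusted p = 0.0171), lost without replicate D, G or E (up to 0.0657).

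COL5A2, a chain of type V collagen that controls fibril width, was also lower in perirenal fat at both ages. Its perirenal values at 7 days were 7.74 (A), 7.63 (D), 8.40 (G), 8.17 (B) and 7.71 (C), all below the median of 8.64 in the other 19 arrays. The difference was -0.78 ± 0.16 (adjusted p = 0.00638), and at 28 days -0.70 ± 0.15 (adjusted p = 0.00898). Omental fat (0.66 ± 0.16, adjusted p = 0.0395) and subcutaneous fat (0.73 ± 0.18, adjusted p = 0.0409) were higher at 7 days, each with a call that was lost on leaving out any of 12 of the 24 arrays (adjusted p up to 0.15 and 0.162) or without the arrays with CKM above 4. COL2A1, the cartilage collagen, was higher in subcutaneous fat at both ages. It read 3.09 (A), 5.97 (F), 2.51 (G) and 4.61 (E) there at 7 days, and 2.60 (H), 2.77 (I), 3.72 (J), 5.01 (M) and 5.15 (N) at 28 days, whereas every array of the other depots was at or below 3.25. Only some subcutaneous arrays were therefore high. The differences were 1.42 ± 0.33 (adjusted p = 0.0327, blocked adjusted p = 0.132, lost without replicate F or E, up to 0.125) and 1.18 ± 0.26 (adjusted p = 0.0126, lost without replicate M, 0.0606, and without the arrays with CKM above 4, 0.285). Of 8 measured cartilage and bone markers none was called in subcutaneous against the other depots at either age, and 6 never reached 4. Over all probe sets the shares called higher there were 0.827% at 7 days and 2.58% at 28 days. SOX5 and SOX6, transcription factors of cartilage, ranged from 5.53 to 7.44 and from 4.74 to 7.30, and SOX5 rose with age in subcutaneous fat (0.83 ± 0.23, adjusted p = 0.015). The part of cartilage in the COL2A1 result was not tested.

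COL27A1, a fibrillar chain of growing cartilage, was higher in epicardial fat at 28 days, with 4.34 (I), 4.55 (J), 4.35 (L), 4.75 (N) and 4.17 (O) beside a median of 3.74 in the other depots. Each epicardial array lay above that median. The difference was 0.76 ± 0.16 (adjusted p = 0.00828, blocked adjusted p = 0.0808). In sternal fat the values were 2.49, 3.40, 3.35, 3.27 and 3.35, all below the median of 3.91 elsewhere (difference -0.82 ± 0.16, adjusted p = 0.000964).

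Collagens of other types and the laminins differed mainly in single depots. COL6A1, a chain of the beaded type VI filaments that surround adipocytes, was higher in omental fat at 28 days. The omental values were 5.53 (I), 4.55 (J), 5.51 (M), 5.72 (N) and 5.68 (O), against a median of 3.93 in the other depots. Apart from subcutaneous replicate H at 5.92, no array outside omental fat exceeded 4.49. The difference was 1.31 ± 0.23 (adjusted p = 0.00108). In epicardial fat COL6A1 was lower (-0.82 ± 0.23, adjusted p = 0.0475), a call lost on leaving out any of 20 of the 25 arrays (up to 0.173), and 15 of 49 arrays shared the value 3.93.

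COL13A1, a transmembrane collagen, was higher in perirenal fat at 7 days (0.51 ± 0.11, adjusted p = 0.0103, blocked adjusted p = 0.0536, lost after quantile normalisation) and in omental fat at 28 days (0.55 ± 0.11, adjusted p = 0.00384). In sternal fat at 28 days it was lower (-0.61 ± 0.11, adjusted p = 0.000447), and after centring this call was lost (adjusted p = 0.0821). LAMA2, the laminin chain of muscle and nerve basement membranes, was higher in epicardial fat, with 5.28 (A), 5.20 (D), 6.17 (G), 5.74 (C) and 6.09 (E) at 7 days and 5.70 (I), 5.81 (J), 5.92 (L), 5.42 (N) and 6.48 (O) at 28 days. The medians elsewhere were 5.04 and 5.23. The differences were 0.77 ± 0.20 (adjusted p = 0.0321, blocked adjusted p = 0.101, lost without replicate G, C or E, up to 0.147, and after quantile normalisation) and 0.53 ± 0.11 (adjusted p = 0.00988, blocked adjusted p = 0.057, lost with all 49 arrays in 1 fit). In these arrays 9 of 19 muscle markers were higher at 7 days (3.35% of all probe sets) and 8 at 28 days (2.74%). The mean of the list was 5.48 to 6.99 at 7 days and 3.12 to 6.74 at 28 days. It was 2.93 to 3.21 in all omental and perirenal arrays. The part of muscle in the LAMA2 result was not tested. LAMA4, a chain of vascular and adipocyte basement membranes, was lower in sternal fat at 28 days (3.82, 3.82, 3.88, 4.49 and 4.09, difference -0.63 ± 0.11, adjusted p = 0.000417), but the call was lost under both other scalings (adjusted p up to 0.24) and 20 of 49 arrays shared the value 4.49. LAMC1, the common laminin gamma chain, differed between depots at 7 days (adjusted p = 0.0387) with the highest mean in omental fat (4.44 ± 0.39, SD, n = 5), and no single depot was called. The F test call was lost on leaving out any of 14 of the 24 arrays (up to 0.0938).

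**Figure D3:**
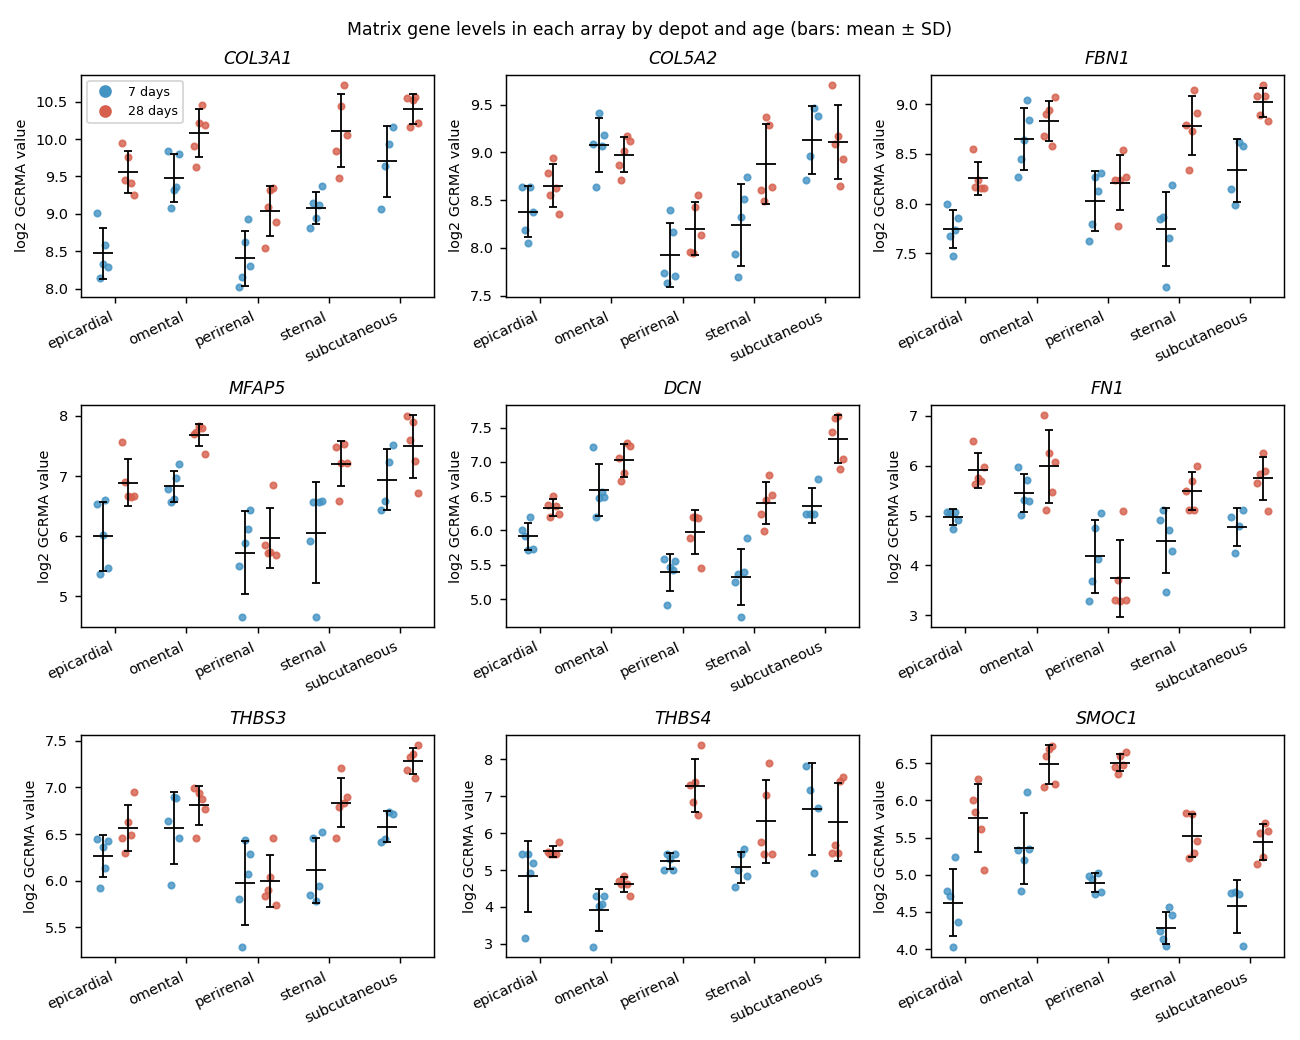
Log2 GCRMA value of 9 matrix genes in each array (points), by depot and age (blue 7 days, red 28 days), with the mean and SD of each group in black. At 28 days 4 of 5 perirenal arrays of FN1 lie between 3.28 and 3.71, and the mean of SMOC1 is higher at 28 than at 7 days in each of the 5 depots.

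Among the microfibril genes, MFAP5 and FBN1 were lower in perirenal fat at 28 days. MFAP5, a microfibril glycoprotein that binds fibrillin, read 5.85 (I), 5.72 (J), 5.74 (M), 6.84 (N) and 5.68 (K) in perirenal fat at 28 days, and from 6.58 through 7.43 to 8.0 in the other 20 arrays. In 4 of 5 perirenal arrays it was below every other array, and replicate N overlapped the rest. The difference was -1.35 ± 0.20 (adjusted p = 0.000293). Omental fat carried 7.71, 7.73, 7.84, 7.80 and 7.36, 0.80 ± 0.20 above the other depots (adjusted p = 0.0185, lost without replicate M or N, up to 0.0603, and after centring). FBN1, which encodes fibrillin-1, was higher in omental fat at 7 days, with 8.26 (A), 8.45 (D), 8.64 (G), 9.05 (C) and 8.84 (E) against a median of 7.86 (0.69 ± 0.15, adjusted p = 0.0187, lost without replicate C or E, up to 0.0735). At 28 days it was higher in subcutaneous fat (9.09, 8.89, 9.20, 9.08 and 8.83, difference 0.50 ± 0.11, adjusted p = 0.0112, blocked adjusted p = 0.0895, lost without replicate J, 0.0516, under both other scalings and without the arrays with CKM above 4). It was lower in perirenal fat (-0.51 ± 0.11, adjusted p = 0.00884, blocked adjusted p = 0.0834) and in epicardial fat (-0.46 ± 0.11, adjusted p = 0.0173, blocked adjusted p = 0.133, lost without replicate J, N or O, up to 0.0638).

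EFEMP2 (fibulin-4), needed for elastic fibre assembly, was lower in perirenal fat (-0.68 ± 0.17, adjusted p = 0.0295, blocked adjusted p = 0.143, lost without replicate J, M or K, up to 0.106). In subcutaneous fat it was higher (0.67 ± 0.17, adjusted p = 0.0335, blocked adjusted p = 0.0749, lost without replicate J, M or N, up to 0.155, under both other scalings and without the arrays with CKM above 4). MFAP2, a second microfibril glycoprotein, was lower in sternal fat at 28 days. Its values there were 2.66, 3.30, 2.93, 2.61 and 3.49, and 4 of 5 lay below every array of the other depots (-0.73 ± 0.13, adjusted p = 0.000417). ELN, encoding elastin, was not called in any comparison and ranged from 2.73 to 3.61.

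Among the proteoglycans, DCN was the one whose depot order was most often called. At 28 days its subcutaneous values were 7.43 (H), 7.64 (I), 7.67 (J), 6.90 (M) and 7.04 (N), and the other depots ran from 5.45 through 6.37 to 7.28. Every subcutaneous array was above that median, and 3 were above every other array. The difference was 0.90 ± 0.13 (adjusted p = 0.000413). Omental fat carried 7.06, 6.73, 6.84, 7.28 and 7.23 (0.51 ± 0.13, adjusted p = 0.0265, lost without replicate I, N or O, up to 0.106, and under both other scalings). Perirenal fat read 5.89, 6.19, 6.19, 6.18 and 5.45, all below the median of 6.77 elsewhere (-0.79 ± 0.13, adjusted p = 0.00119). At 7 days omental fat was already higher, with 7.21 (A), 6.19 (D), 6.47 (G), 6.56 (C) and 6.49 (E) against a median of 5.72 (0.84 ± 0.15, adjusted p = 0.00523). Perirenal fat (-0.66 ± 0.15, adjusted p = 0.0128, lost without replicate D, 0.0629) and sternal fat (-0.74 ± 0.15, adjusted p = 0.0183, blocked adjusted p = 0.0775, lost without replicate G, 0.0907) were lower, and both calls were lost without the arrays with CKM above 4.

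VCAN, the large hyaluronan-binding proteoglycan versican, was lower in perirenal fat at 28 days (3.55, 3.17, 3.12, 3.55 and 3.01, difference -0.96 ± 0.16, adjusted p = 0.00119) and higher in subcutaneous fat (4.42, 4.96, 5.05, 4.83 and 4.37, 0.84 ± 0.16, adjusted p = 0.00508, lost without the arrays with CKM above 4, 0.185). It was also called higher in omental fat (0.61 ± 0.16, adjusted p = 0.0311) and lower in sternal fat (-0.48 ± 0.16, adjusted p = 0.0423). Both of these calls were lost under both other scalings, the first without replicate I, J, M or O (up to 0.152) and the second without any of 12 of the 25 arrays (up to 0.145). BGN (biglycan), the close relative of decorin, was higher in sternal fat at 28 days, and the values there split. Replicates M, N and O read 5.55, 7.69 and 6.42, above every array of the other depots (highest 5.15), while I and J both read 4.01. The difference was 1.22 ± 0.36 (adjusted p = 0.0207, lost without replicate N or O, up to 0.118). CKM exceeded 4 in replicates J, N and O of this group, in which 5 of 19 muscle markers were higher and the mean of that list ranged from 3.09 to 7.58. Without the arrays of either depot above that level BGN was not called (adjusted p = 0.346). LUM, encoding lumican, never exceeded 3.27.

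Fibronectin showed the widest perirenal difference. FN1 read 3.32 (I), 3.71 (J), 3.28 (M), 5.08 (N) and 3.31 (K) in perirenal fat at 28 days, while the other 20 arrays ran from 5.08 through 5.72 to 7.02. In 4 of 5 perirenal arrays the value was below every other array, and replicate N reached the lowest of the others. The difference was -2.04 ± 0.27 (adjusted p = 0.000108). At 7 days the perirenal values were 3.29, 3.68, 4.76, 4.13 and 5.06, without a call. Replicate A was below every array of the other depots (3.47 to 5.97), and the other 4 lay within their range.

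The thrombospondins, matricellular glycoproteins that bind collagens and cell receptors, did not move together. THBS3 was lower in perirenal fat at 28 days, with 5.84 (I), 5.90 (J), 6.04 (M), 6.46 (N) and 5.74 (K) against 6.29 to 7.45 elsewhere (-0.88 ± 0.11, adjusted p = 8.06e-05). In subcutaneous fat it read 7.18, 7.33, 7.36, 7.11 and 7.45 (0.74 ± 0.11, adjusted p = 0.000503). THBS4 went the other way in perirenal fat: the values were 7.31 (I), 6.85 (J), 7.38 (M), 6.49 (N) and 8.39 (K), all above the median of 5.45 elsewhere, and the difference was 1.60 ± 0.36 (adjusted p = 0.0149, blocked adjusted p = 0.124, lost without replicate K, 0.0811). In omental fat THBS4 was 4.70, 4.62, 4.84, 4.62 and 4.30 at 28 days. This was the only one of the 58 called depot differences in which the groups did not overlap, since every other array was at or above 5.43 (-1.74 ± 0.36, adjusted p = 0.00525). Overlap was not counted over all probe sets.

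At 7 days the omental values of THBS4 were 2.91 (A), 4.30 (D), 4.03 (G), 4.08 (C) and 4.30 (E) (-1.52 ± 0.36, adjusted p = 0.0319, blocked adjusted p = 0.107, lost without replicate A, G, C or E, up to 0.131). Subcutaneous fat read 7.83 (A), 7.17 (F), 4.91 (G) and 6.67 (E), and 3 of these 4 exceeded every array of the other depots (1.88 ± 0.39, adjusted p = 0.0141, blocked adjusted p = 0.116, lost without replicate A or F, up to 0.0727). In the same group 4 of 19 muscle markers were higher (0.827% of all probe sets) and 1 was lower (0.701%). The list mean was 2.94 to 7.92, and the part of muscle in the THBS4 result was not tested. THBS1 was higher in sternal fat at 7 days (5.37, 5.13, 4.60, 5.11 and 5.16, difference 0.60 ± 0.13, adjusted p = 0.02, blocked adjusted p = 0.117, lost without replicate D, F or E, up to 0.0656, and with all 49 arrays in 1 fit), and 16 of 49 arrays shared the value 4.60.

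POSTN, a matricellular protein of collagen-rich tissue, was higher in subcutaneous fat, with 2.99 (A), 3.69 (F), 4.56 (G) and 5.16 (E) at 7 days and 4.55 (H), 4.55 (I), 5.72 (J), 4.69 (M) and 3.94 (N) at 28 days. The medians elsewhere were 2.85 and 2.96. The differences were 1.17 ± 0.28 (adjusted p = 0.0393, lost on leaving out any of 12 of the 24 arrays, up to 0.205) and 1.48 ± 0.26 (adjusted p = 0.00214), and both were lost without the arrays with CKM above 4. Perirenal fat lay at 2.5 to 2.96 at 28 days (-1.04 ± 0.26, adjusted p = 0.0261, blocked adjusted p = 0.112, lost without replicate I, J, M or K, up to 0.08).

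SMOC1, a calcium-binding protein related to SPARC that is found at basement membranes, had an order of its own. It was higher in omental fat at 7 days (5.33, 4.79, 5.20, 6.11 and 5.35, difference 0.76 ± 0.17, adjusted p = 0.0234, lost without replicate A, C or E, up to 0.0905). At 28 days it was higher in omental fat (6.19, 6.59, 6.69, 6.73 and 6.22, 0.67 ± 0.14, adjusted p = 0.00525) and in perirenal fat (6.45, 6.36, 6.60, 6.48 and 6.66, 0.71 ± 0.14, adjusted p = 0.00544). Sternal fat (-0.53 ± 0.14, adjusted p = 0.0108) and subcutaneous fat (-0.62 ± 0.14, adjusted p = 0.0137) were lower. The sternal call was lost under both other scalings (adjusted p up to 0.614), and the subcutaneous call without replicate H or J (up to 0.0598). SMOC1 and THBS4 were the 2 genes called higher in perirenal fat at 28 days, beside the 10 called lower.

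At 28 days, leaving out the 5 arrays of subcutaneous and sternal fat in which CKM exceeded 4 took the subcutaneous count from 9 to 2, with DCN and THBS3 called in 3 arrays. Under the same rule at 7 days 1 subcutaneous array stayed. With the replicate block 18 calls on named genes in single depots were lost, and the F test calls of THBS1 and THBS4 at 7 days (blocked adjusted p = 0.103 and 0.0802) and FBLN1 at 28 days (blocked adjusted p = 0.153). Of the 57 depot calls on genes named here, 19 were kept under every alternative setting and without every single array, 3 of 18 at 7 days and 16 of 39 at 28 days. In perirenal fat at 28 days these were 8 of 12: COL3A1, COL5A2, DCN, FN1, MFAP5, SMOC1, THBS3 and VCAN. Among the 19, calls of COL13A1, COL27A1, MFAP2 and VCAN faced 7 alternatives and the rest 8. These 4 genes had a mean under 4 and were not in the fit of only brighter probe sets. That fit ended none of the 89 named calls it held.

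The change with age was the difference between 28 and 7 days within each depot. All 36 calls were rises, and none of the 58 matrix genes was called lower in any depot. In sternal fat 11 genes rose (2.47% of all probe sets) and none was called lower (3.89%). In subcutaneous fat 8 rose (7.68%) and none was called lower (1.57%), and in omental fat 8 rose (13.5%) and none was called lower (1.03%), so that the omental share was that of all probe sets. Perirenal fat had 5 rises (6.23%) and 0 called lower (3.09%), and epicardial fat had 4 rises (4.21%) and 0 called lower (1.63%). After centring, the split was 6 higher and 21 lower in omental, 7 and 8 in subcutaneous, 3 and 1 in epicardial, 2 and 1 in perirenal and 15 and 0 in sternal fat, whereas quantile normalisation left 3, 4, 3, 3 and 11 rises and 0 called lower. Over all probe sets centring gave 446 higher and 5295 lower in omental, 309 and 1577 in subcutaneous, 216 and 393 in epicardial, 337 and 1109 in perirenal and 544 and 248 in sternal fat. The 17 brighter genes had a median change of 0.72 in sternal fat, beside -0.07 over all probe sets of that brightness, and of 0.27 to 0.46 in the other depots, beside 0.10 to 0.26.

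Between 7 and 28 days SMOC1 and COL3A1 were called in all 5 depots, COL27A1 and DCN in 3, and EFEMP2, FBLN1, FBN1 and THBS3 in 2. SMOC1 rose by 1.62 ± 0.20 in perirenal fat (adjusted p = 1.92e-07), where the values moved from 4.98, 4.94, 4.74, 5.02 and 4.77 to between 6.36 and 6.66. It rose by 1.24 ± 0.20 in sternal, 1.14 ± 0.20 in epicardial, 1.13 ± 0.20 in omental and 0.87 ± 0.21 in subcutaneous fat (adjusted p at most 0.00587). The ages did not overlap except in epicardial fat, where replicate C at 7 days (5.24) exceeded replicate O at 28 days (5.07). The subcutaneous rise was lost after quantile normalisation and without the arrays with CKM above 4 (adjusted p up to 0.479).

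COL3A1 rose by 1.09 ± 0.21 in epicardial fat (adjusted p = 0.000639), from 9.01, 8.15, 8.33, 8.58 and 8.29 to 9.94, 9.45, 9.76, 9.41 and 9.26. The 2 ages did not overlap there. In sternal fat it rose by 1.03 ± 0.21 (adjusted p = 0.000797), and in subcutaneous fat by 0.70 ± 0.22 (adjusted p = 0.038, lost without subcutaneous replicate A or F at 7 days or H, J or M at 28 days, up to 0.219). The omental rise of 0.60 ± 0.21 (adjusted p = 0.0465) was lost on leaving out any of 9 of the 49 arrays (up to 0.14) and the perirenal rise of 0.63 ± 0.21 (adjusted p = 0.0477) any of 27 (up to 0.154), and both were lost under both other scalings. After quantile normalisation no gene was called in all 5 depots, and on leaving out any of 30 of the 49 arrays 1 gene was.

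**Figure D4:**
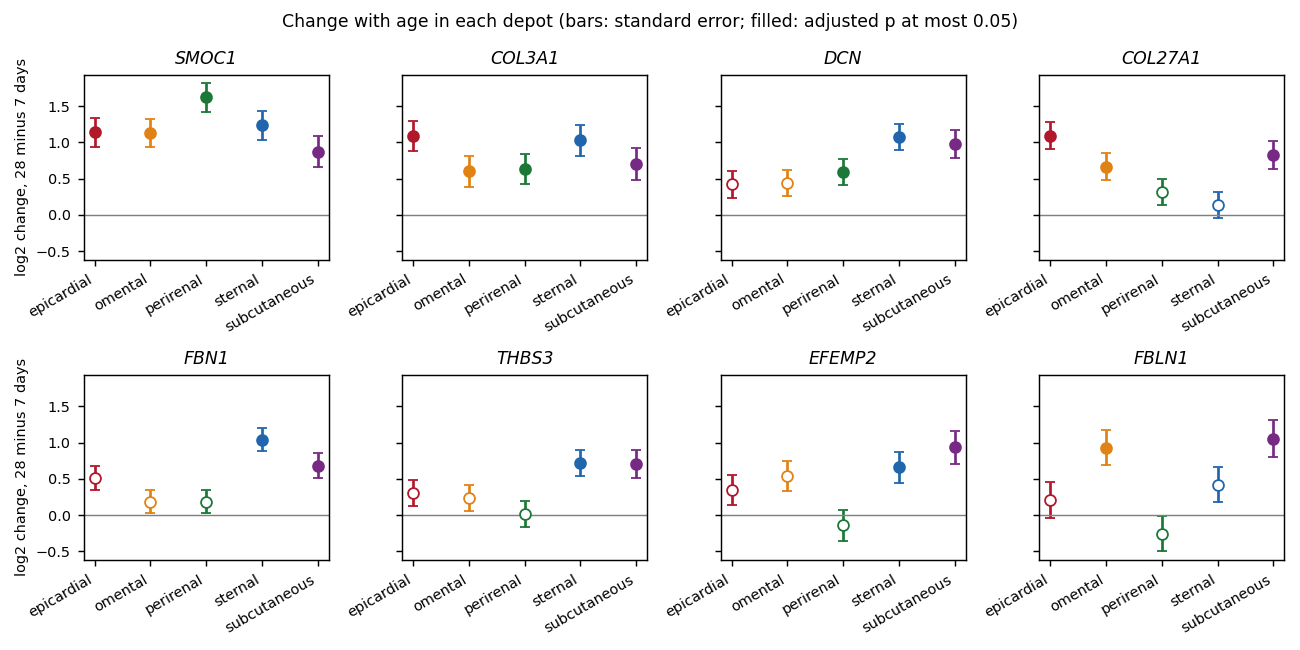
Change in log2 value from 7 to 28 days in each depot for the 8 matrix genes called in at least 2 depots, with standard errors. Filled points had an adjusted p of at most 0.05. SMOC1 and COL3A1 are filled in all 5 depots, and DCN in perirenal, sternal and subcutaneous fat.

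Sternal fat had rises across the roles. DCN rose by 1.07 ± 0.18 (adjusted p = 6.39e-05), from 5.24, 5.37, 4.74, 5.40 and 5.89 to 6.24, 5.99, 6.44, 6.81 and 6.51. FBN1 rose by 1.04 ± 0.16 (adjusted p = 1.68e-05), from 7.85, 7.86, 7.16, 7.65 and 8.18 to 8.79, 8.34, 8.73, 9.15 and 8.91. Neither gene overlapped between the ages. BGN rose by 1.80 ± 0.35 (adjusted p = 0.000495), with the split among the 28-day arrays given above. MFAP5 (1.15 ± 0.32, adjusted p = 0.0176, lost without sternal replicate G at 7 days or N at 28 days, up to 0.126) and THBS3 (0.72 ± 0.18, adjusted p = 0.00697) were also called, and both calls were lost without the arrays with CKM above 4. POSTN rose by 1.11 ± 0.33 (adjusted p = 0.0317), lost without sternal replicate D, F or G at 7 days or M or N at 28 days (up to 0.141). COL5A2, EFEMP2 and SPARC rose by 0.64, 0.66 and 0.19 and were each lost without 5, 36 and 3 of the 49 arrays (adjusted p up to 0.168, 0.275 and 0.128). Without the arrays with CKM above 4, which leaves sternal replicates I and M at 28 days, 7 of the 11 sternal rises were kept. Rises other than those of MFAP5 and THBS3 were thus lost as well. Of 13 fibroblast and progenitor markers 4 rose in sternal fat, among them GSN (2.37 ± 0.40) and DPT (2.37 ± 0.42), and 3 of 19 muscle markers rose, beside 2.47% of all probe sets. The mean of the fibroblast list lay between 4.04 and 4.30 at 7 days and between 4.43 and 4.98 at 28 days. The mean of the muscle list lay between 2.93 and 4.27 at 7 days and between 3.09 and 7.58 at 28 days. The part of either in these rises was not tested.

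In subcutaneous fat DCN rose by 0.97 ± 0.19 (adjusted p = 0.000929), from 6.24, 6.24, 6.24 and 6.75 to between 6.90 and 7.67. Replicates A, F and G at 7 days were tied at 6.24. FBLN1 (fibulin-1), a glycoprotein of elastic fibres and basement membranes, rose by 1.06 ± 0.26 (adjusted p = 0.00614), EFEMP2 by 0.93 ± 0.22 (adjusted p = 0.00519), COL27A1 by 0.83 ± 0.19, THBS3 by 0.71 ± 0.19 and FBN1 by 0.68 ± 0.17 (lost without replicate F at 7 days, adjusted p = 0.052). None of the 8 genes overlapped between the ages, which was not counted over all probe sets. All of these calls except DCN were lost without the arrays with CKM above 4, which leaves 1 array at 7 days and turned the split from 8 higher and 0 lower to 1 and 5. In subcutaneous fat 5 of 19 muscle markers fell with age (1.57% of all probe sets) and 3 of 13 fibroblast markers rose (7.68%).

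In omental fat COL13A1 rose by 1.07 ± 0.14 (adjusted p = 8.47e-07), from 2.49, 2.86, 2.98, 2.86 and 2.86 to 3.80, 3.54, 3.95, 4.05 and 4.06. COL6A1 rose by 1.11 ± 0.32 (adjusted p = 0.0134) and its partner chain COL6A2 by 0.74 ± 0.16 (adjusted p = 0.00075), MFAP2 by 0.77 ± 0.18 and FBLN1 by 0.93 ± 0.24. COL27A1 rose by 0.66 ± 0.18 in omental fat (adjusted p = 0.00965, lost without replicate O at 28 days, 0.0506) and by 1.09 ± 0.18 in epicardial fat (adjusted p = 0.000108), where LAMB1 rose too (0.43 ± 0.12, adjusted p = 0.0258, lost without 5 of the 49 arrays, up to 0.0839). In omental fat, where 13.5% of all probe sets rose, 4 of 13 fibroblast and progenitor markers also rose: DPT (1.81 ± 0.42), DPP4 (0.66 ± 0.23), PI16 (0.48 ± 0.10) and CFD (0.42 ± 0.14). The mean of that list lay between 4.32 and 4.62 at 7 days and between 4.66 and 5.06 at 28 days, and its part in the omental rises was not tested. In perirenal fat THBS4 rose by 2.04 ± 0.46 (adjusted p = 0.00207), from 5.01, 5.44, 5.29, 5.01 and 5.43 to the values above. DCN rose by 0.59 ± 0.18 (adjusted p = 0.0302, lost without perirenal replicate D at 7 days or J, M or N at 28 days, up to 0.134) and COL4A1 by 0.43 ± 0.13 (adjusted p = 0.0225, lost without replicate G at 7 days or M at 28 days, up to 0.117). FN1 was not called in any depot, with a change of -0.44 ± 0.33 in perirenal fat and of 0.53 to 0.99 elsewhere. With only the 2 groups of a comparison in the fit, 10 of the 36 rises were called. Of the 36 rises 23 had no overlap between ages, which was not counted over all probe sets, so whether 23 is many cannot be told. Kept under every alternative and without every single array were 8: SMOC1 in omental, perirenal and sternal fat, COL13A1 in omental, COL27A1 and COL3A1 in epicardial, FBN1 in sternal and THBS4 in perirenal fat. Of these, COL13A1 and COL27A1 had a mean under 4 and faced 6 alternatives, and the others 7.

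Whether the change with age differed between depots was tested directly, and 6 of 58 matrix genes were called (10.3%), close to the 9.17% of all probe sets. COL13A1 had the smallest adjusted p (0.00135), with 1.07 ± 0.14 in omental fat and 0.02 to 0.33 in the other depots. It was the only one of the 6 kept under every alternative and without every single array. Its mean of 3.28 kept it out of the fit of only brighter probe sets, so COL13A1 faced 5 alternatives. FBN1 and LAMA4 were in that fit. FBN1 (adjusted p = 0.0359) changed by 1.04 ± 0.16 in sternal fat and by 0.19 ± 0.16 in both omental and perirenal fat. FBLN1 (0.0384) changed by 1.06 ± 0.26 in subcutaneous and -0.26 ± 0.24 in perirenal fat, MFAP2 (0.0391) by 0.77 ± 0.18 in omental and -0.23 ± 0.18 in sternal fat, LAMA4 (0.0431) by 0.46 ± 0.17 in omental and -0.44 ± 0.17 in sternal fat, and COL27A1 (0.0488) by 1.09 ± 0.18 in epicardial and 0.13 ± 0.18 in sternal fat. For these 5 genes the call was lost on leaving out any of 11, 17, 10, 19 and 34 of the 49 arrays (adjusted p up to 0.0782, 0.0725, 0.0762, 0.0842 and 0.0852). Of the 6 calls, COL13A1 included, 2 were kept after quantile normalisation, 4 after centring and 2 without the arrays with CKM above 4.

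**Figure D5:**
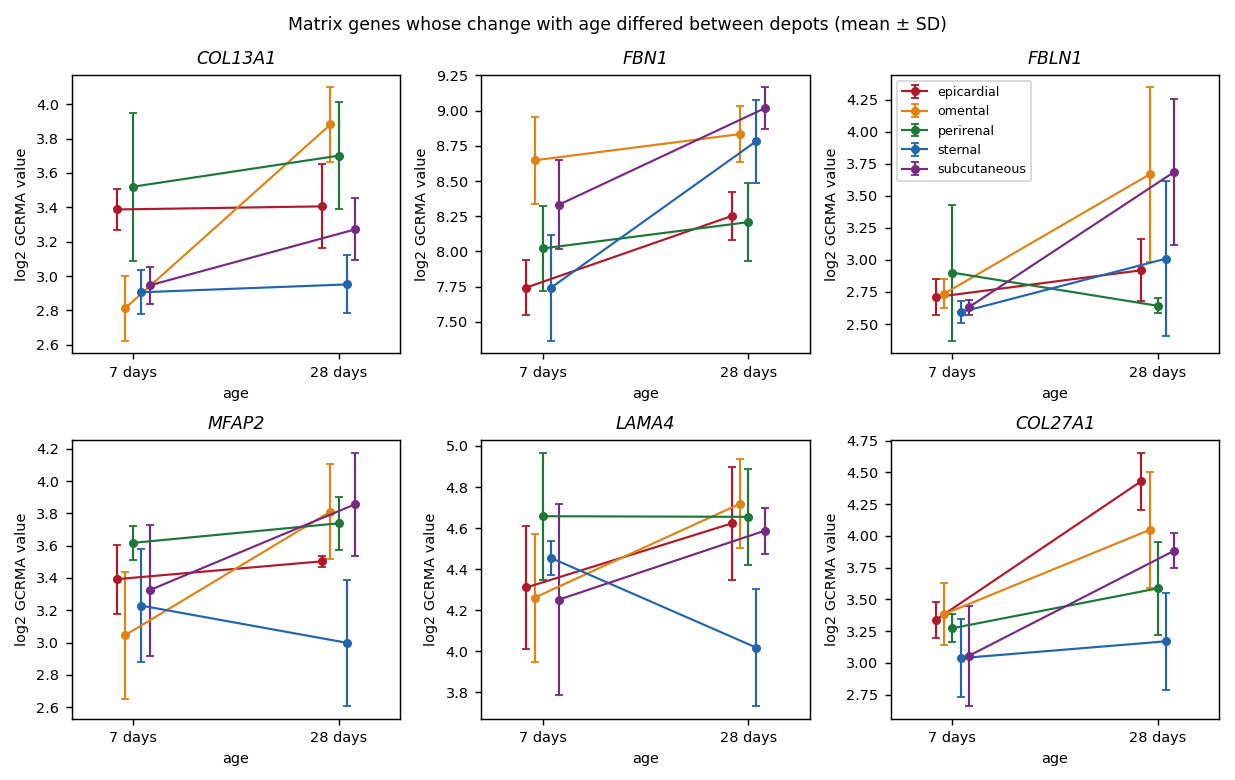
Mean log2 value and SD at 7 and 28 days in each depot (colours) for the 6 matrix genes whose change with age differed between depots. The omental line of COL13A1 rises from 2.81 to 3.88, and the sternal line of FBN1 from 7.74 to 8.78.

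Genes that process collagen were measured by 18 probe sets, of which none was called at 7 days (8.16% of all probe sets) and 4 differed between depots at 28 days (20%). The collagen chaperone SERPINH1 (0.48 ± 0.09) and the prolyl isomerase PPIB (0.30 ± 0.08) were higher in omental fat, ADAMTS2, which cleaves procollagen, was higher in subcutaneous fat (0.42 ± 0.11), and PPIB was lower in sternal fat (-0.36 ± 0.08). Of 18 such genes 14 never reached 4. With age SERPINH1 rose in omental fat (0.54 ± 0.11), the cross-linking oxidase LOXL1 rose in subcutaneous fat (0.87 ± 0.21), and the lysyl hydroxylase PLOD2 fell in perirenal and sternal fat (-0.34 ± 0.09 and -0.43 ± 0.09). The median of the list lay between -0.07 and 0.09 in all comparisons, beside -0.07 to 0.06 over all probe sets.

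Of 17 matrix receptors 8 differed between depots at 28 days (20% of all probe sets) and 2 at 7 days (8.16%). In omental fat 4 were higher at 28 days (4.76%). Among them were the fatty acid and thrombospondin receptor CD36 (0.60 ± 0.16), the hyaluronan receptor CD44 (0.52 ± 0.11) and the thrombospondin receptor CD47 (0.43 ± 0.10). The collagen receptor kinase DDR2 was higher in subcutaneous fat (1.35 ± 0.17) and rose there by 1.61 ± 0.19. With age 5 receptors rose in omental, 2 rose and 1 fell in sternal, 1 rose and 2 fell in subcutaneous, 1 rose in perirenal and none was called in epicardial fat. ITGB1, the common integrin beta chain, was higher in epicardial fat at both ages (2.99 ± 0.49 and 2.49 ± 0.52), in arrays with the muscle transcripts given above. In the transforming growth factor beta axis 1 of 15 genes differed between depots at each age, beside the same 8.16% and 20%, and with age 3 rose in omental fat (LTBP4, 0.89 ± 0.16, LTBP3, 0.63 ± 0.14, and SMAD2, 0.77 ± 0.17), 2 in subcutaneous fat and 1 in sternal fat. For both lists, the shares of all probe sets that rose with age were 13.5% in omental, 7.68% in subcutaneous, 6.23% in perirenal and 2.47% in sternal fat. The shares that fell were 3.89% in sternal and 1.57% in subcutaneous fat.

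Of 13 fibroblast and adipocyte progenitor markers, 3 were lower (0.487% of all probe sets) and 1 was higher (2.87%) in perirenal fat at 28 days. S100A4 (-1.54 ± 0.38), DPT (dermatopontin, -1.05 ± 0.24) and PDGFRA (-0.40 ± 0.09) were lower, and TCF4 was higher (0.59 ± 0.13). In subcutaneous fat 4 were higher (2.58%), led by S100A4 (1.62 ± 0.38) and TWIST1 (1.09 ± 0.13). There 1 was lower (0.458%), DPT (-1.52 ± 0.24). The mean of the list was 4.38 to 4.58 in perirenal and 4.70 to 4.95 in subcutaneous fat, without overlap. Its part in the matrix differences between these depots was not tested. Of 10 adipocyte markers 1 was higher in perirenal fat at 28 days (2.87%), the adipocyte regulator PPARG (0.47 ± 0.08). At 7 days 2 were higher there (4.58%), among them UCP1, the uncoupling protein of brown fat (2.57 ± 0.41). UCP1 fell in perirenal fat with age by 3.37 ± 0.36. The mean of the adipocyte list was 3.46 to 3.68 in perirenal fat at 28 days and 3.25 to 3.90 in the other depots, and its part in the perirenal matrix differences was not tested. In omental fat the mesothelial factor WT1 was higher at 7 days (1.89 ± 0.38) and at 28 days (2.34 ± 0.27), and CLDN1 at 28 days (0.59 ± 0.13). These were 1 of 5 measured markers of mesothelium at 7 days (0.565% of all probe sets) and 2 at 28 days (4.76%). The mean of that list was 3.28 to 3.98 in omental fat at 28 days and 2.61 to 3.57 in the other depots, KRT19 stayed at or below 2.92 and LRRN4 at or below 2.90 in every array, and its part in the omental differences was not tested. WT1 was also higher in epicardial fat at 28 days (1.60 ± 0.27). Of 8 smooth muscle and pericyte markers 1 was higher in omental (4.76%) and 1 was lower in perirenal fat (0.487%) at 28 days. With age 3 rose in omental (13.5% of all probe sets) and 1 in subcutaneous fat (7.68%). None of 10 endothelial markers and 1 of 7 leucocyte markers ever reached 4.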

How the data were processed

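Labelled RNA from 49 sheep adipose samples was measured on human U133 Plus 2.0 arrays. The authors deposited 1 table of log2 values, background-corrected and normalised by GCRMA with the affy package (versions not given in the sources used here), reduced to 10273 probe sets, 1 per gene. Human probes on sheep RNA can lower the signal of mismatched probes, and GCRMA's floor compresses differences of dim genes. Of the probe sets 9780 carried 1 symbol, 6 several and 487 none. Arrays give no read depth, and their number limits the precision.

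Groups came from the tissue and age fields of the labels. Values were used as deposited, without a filter. In limma 3.58.1 (R 4.3.3) a fit over the 5 depots of each age gave an F test and a contrast of each depot with the average of the remaining 4, and a fit over all 49 arrays gave the change from 7 to 28 days in each depot and its interaction with depot. P-values were Benjamini-Hochberg adjusted over all probe sets and called at 0.05 or below. The code was tested on simulated data. Twins, litter and maternal diet are not in the fits.

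Alternatives were the replicate number as a block, quantile normalisation, centring each array on the median of its brighter probe sets (mean 4 or more), keeping only these, array weights, other sets of arrays in the fit, leaving out sternal and subcutaneous arrays with CKM above 4, and leaving out each array. Genes were named where they were among the 4 largest called differences of a comparison, the 6 smallest p-values of an F test, the 10 highest means or a fixed list of well-known matrix genes. From each other list up to 4 called genes were taken in a comparison. The matrix genes, the pathway lists and the marker lists were chosen with earlier results of these data known.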

Additional observations from a re-analysis of the deposited data

Results flagged for a closer look

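The change with age differed between depots for 6 of 58 matrix genes by the interaction test of limma (10.3%, close to the 9.17% of all probe sets). The adjusted p was 0.00135 (COL13A1), 0.0359 (FBN1), 0.0384 (FBLN1), 0.0391 (MFAP2), 0.0431 (LAMA4) and 0.0488 (COL27A1).

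Single arrays stood apart from the rest of their group in 29 of 160 groups looked at, for 16 matrix genes with a mean of at least 4. Chance gives about 5% for such a test in values without ties, and exact ties make a gap easier to pass. Of the 29, 12 were low. Epicardial replicate D at 7 days was low for 3 genes: EFEMP2 (3.57, others 4.16 to 4.29), LAMA4 (3.79, others 4.31 to 4.49) and THBS4 (3.16, others 4.91 to 5.43).

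Of the values that bear on calls, replicate N of perirenal fat at 28 days was high for FN1 (5.08, others 3.28 to 3.71) and MFAP5 (6.84, others 5.68 to 5.85). COL6A1 was low in omental J (4.55) and high in perirenal J (4.48) and subcutaneous H (5.92) at 28 days. BGN was high in epicardial J at 28 days (4.69) and low in sternal F at 7 days (3.02). DCN was low in perirenal D (4.92) and high in subcutaneous E (6.75) at 7 days. THBS4 was low in omental A at 7 days (2.91) and high in epicardial O at 28 days (5.77), and SMOC1 was low in subcutaneous E at 7 days (4.04).

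The rest were small gaps among nearly tied values or single high or low arrays. Some of them also lay in groups with a call, such as EFEMP2 in sternal, FBN1 in epicardial and MFAP5 in omental fat at 28 days. EFEMP2 was 4.09 in perirenal B at 7 days and 5.49 in sternal N at 28 days. FBN1 was 8.54 and MFAP5 7.56 in epicardial I at 28 days, and MFAP5 was 7.36 in omental O. LAMA2 was 5.19 in omental M at 28 days. LAMA4 was 5.12 in epicardial L at 28 days, 5.2 in perirenal D and 3.55 in subcutaneous A at 7 days, the last a low array (others 4.49). LAMB1 was 4.68 in perirenal D at 7 days and 4.74 in subcutaneous H at 28 days. THBS1 was 4.73 in epicardial L and 5.67 in subcutaneous I at 28 days and 5.27 in perirenal B at 7 days.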

How the results depend on the processing

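No named gene reversed, but the split of calls turned for sternal fat at 28 days and the omental and subcutaneous changes with age, as given there. With the replicate number as a fixed block the counts of called matrix genes became 1 in epicardial, 0 in sternal and 2 in subcutaneous fat at 7 days and 1 in epicardial fat at 28 days. Same-numbered arrays were barely alike (mean correlation of deviations 0.044 over 33 pairs at 7 days, of which 6 were over 0.1, and 0.0765 over 39 pairs at 28 days, of which 12 were), their labels do not say whether a number is an animal, and 21 of 87 named calls were lost with that block and 1 of 129 with a random one. Quantile normalisation gave 4 in epicardial and 1 in sternal fat at 7 days and 3, 3 and 4 changes with age in omental, perirenal and subcutaneous fat. It gave 3 interactions, of which 2 were among the 6 of the main fit, and 0 genes called in all 5 depots. Centring gave 20 (F test), 20 (epicardial) and 9 (omental) at 7 days, 50 (F test) and 43 (sternal) at 28 days, 27, 3 and 15 changes with age in omental, perirenal and subcutaneous fat, 26 interactions and 1 gene in all 5 depots. It moved the median of all probe sets by over 0.1 in 10 of 15 comparisons, from -0.313 for the change with age in omental fat to 0.412 in sternal fat at 28 days, and quantile normalisation did so in 0 of 15. Keeping only the brighter probe sets (mean 4 or more) gave 4 in epicardial fat at 7 days and 3 in sternal fat at 28 days. Leaving out the arrays with CKM above 4 gave 7 in epicardial fat at 7 days, 2 in subcutaneous fat at 28 days and 0 in all 5 depots, and 40 of 129 named calls were lost. With all 49 arrays in 1 fit there were 16 (F test) and 4 (epicardial) at 7 days and 2 (epicardial) at 28 days. With only the 2 groups in the fit the changes with age were 4 in omental, 3 in perirenal, 2 in sternal and 1 in subcutaneous fat and 0 in all 5, with fewer samples behind each spread. Array weights gave 8 changes in perirenal fat and 1 gene in all 5. Apart from this last construction, the cause was not tested.

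Leaving out 1 array gave 0 to 3 calls in epicardial (0 without epicardial E), 1 to 6 in omental (1 without omental C or E), 1 to 2 in sternal and 2 to 5 in subcutaneous fat at 7 days (2 without subcutaneous F, G or E). At 28 days it gave 2 to 4 in epicardial (2 without J, N or O) and 5 to 10 in subcutaneous fat (5 without J). Changes with age numbered 2 to 6 in perirenal (2 without perirenal M at 28 days) and 7 to 12 in sternal fat (7 without sternal M or N at 28 days), interactions 2 to 6 (2 without omental E at 7 days) and genes called in all 5 depots 1 to 2. Signal near the floor limits 31 of 58 genes, whose mean was under 3.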
